A study of Mus musculus with 3 samples.

Results

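The enzymes that write and erase DNA methylation were followed at the RNA level in mouse ES cells depleted of NUP153, a nucleoporin of the nuclear basket. The group holds 9 genes of the 24421 counted, chosen by name: the DNA methyltransferase genes Dnmt1, Dnmt3a, Dnmt3b and Dnmt3l, the maintenance factor Uhrf1, the dioxygenase genes Tet1, Tet2 and Tet3, and the DNA glycosylase gene Tdg. All 9 symbols were found, and 8 of them passed the minimum of a mean of 10 reads over the libraries, as did 16670 genes in all. RNA-Seq was performed on 3 libraries, 1 per condition: control shRNA, NUP153 KD-1 and NUP153 KD-2, each knockdown with its own shRNA against Nup153. Every library came from undifferentiated female ES cells of the line EL16.7 (an F2 of 129S1/CastEiJx 129S1, wild type), grown with serum and LIF on γ-irradiated MEFs of Tg(DR4)1Jae/J mice, transduced with lentivirus and kept in puromycin at 2 μg/ml for 2 days. The control virus carried a scramble shRNA, so transduction and selection are shared by all conditions. RNA of feeder cells can be part of each library, and fewer cells of a type cannot be told apart from less RNA per cell in such bulk samples.

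DNA methylation in mammals sits mostly on the cytosine of CpG dinucleotides. DNMT3A and DNMT3B place it on unmethylated DNA with the help of DNMT3L, which has no catalytic activity, while UHRF1 recruits DNMT1 to copy it onto the new strand after replication. The TET enzymes oxidize 5-methylcytosine, and TDG cuts out the most oxidized forms, which base excision repair then replaces with cytosine. Female ES cells carry 2 active X chromosomes and are known for low genomic methylation. Methylation itself was not measured in these libraries.

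Reads counted on genes numbered from 69839336 in KD-2 to 85258834 in KD-1. Nup153 had 27870 reads in control, 16451 with KD-1 and 11126 with KD-2, which is a log2 fold change of −0.99 with KD-1 and −1.43 with KD-2 against control. Pluripotency markers were abundant in every library: Zfp42, a marker of undifferentiated ES cells, had 82732, 99896 and 54998 reads in control, KD-1 and KD-2. Fibroblast markers were present too and differed between the libraries. The summed level of 16 fibroblast genes was 1710 CPM (reads of a gene scaled to a fixed library total) in control, 895 with KD-1 and 3609 with KD-2, none of the 16 was at 0 in any library, and after scaling all of them were lowest in KD-1 and highest in KD-2. All 8 tested writers and erasers described next were instead higher in KD-1 than in KD-2 under upper quartile scaling. So were 9824 of all 16670 tested genes. The part of the fibroblast RNA in the values of the 8 genes was not tested.

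How far a gene can be told apart from its copies can bear on its count, so the sequences are shown first. The part of shared sequence in the values was not tested. Reads were 50 bases long. The study's methods describe a filter on mapping quality for a counting tool other than the one in the submitters' notes, so how reads that fit several places were counted here is not known. Of the distinct 50-base words in the GENCODE vM21 transcripts (GRCm38) of Tdg, 35.5% also occur in transcripts of another gene, against 15.4% for Uhrf1, 9.81% for Dnmt3b and less than 1% for each of the other 6 genes. The words of Dnmt3b that occur elsewhere all lie in its duplicate Dnmt3c, and most of those of Uhrf1 lie in the processed pseudogene Gm5648. For Tdg, the processed pseudogene Tdg-ps on chromosome 15 holds 29.4% of the words, Gm9855 15.8% and Gm5597 14.97%. The coding sequence of Tdg is identical to Tdg-ps at 1177 of 1191 bases, which is 98.8%. A window of 50 coding bases is shown where both are the same, Tdg at chr10:82638782-82638831 and Tdg-ps at chr15:82516516-82516565 (both on the plus strand), followed by the window where they differ most, Tdg at chr10:82647954-82648003 and Tdg-ps at chr15:82517410-82517459, with the 3 bases that differ in capitals.
Tdg and Tdg-ps, same window: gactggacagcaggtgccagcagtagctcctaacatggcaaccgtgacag
Tdg, most different window: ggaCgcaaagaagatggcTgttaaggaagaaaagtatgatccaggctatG
Tdg-ps, most different window: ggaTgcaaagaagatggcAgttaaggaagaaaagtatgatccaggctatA

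Of the 1142 coding windows of this length, 709 (62.1%) are identical in Tdg-ps and 1120 (98.1%) differ from it at no more than 2 bases. Over the whole main transcript of Tdg, Tdg-201, 54.4% of the windows are found in Tdg-ps. The other windows are not in Tdg-ps. Gm9855 is listed at 0 reads in all 3 libraries.

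The promoters of the group differ in CpG content. Taking the 250 bases before each RefSeq start site (GRCm38.p6), the 16 start sites of the 9 genes hold from 2 to 51 CpG, where the median over all 32851 such stretches is 6 and the quartiles are 2 and 16. Tet2 has the most, with 51. Among the de novo methylation genes, the Dnmt3b stretch holds 21 CpG, and the 3 of Dnmt3l hold 5, 4 and 3. The stretches of Dnmt3b (chr2:153649199-153649448, plus strand) and of the first Dnmt3l start site (chr10:78042037-78042286, plus strand) are shown. They were picked because the read numbers of these partners moved apart within the libraries, as given further on. Which of the 3 Dnmt3l start sites is used in these cells was not determined. Each CG is in capitals.
Dnmt3b: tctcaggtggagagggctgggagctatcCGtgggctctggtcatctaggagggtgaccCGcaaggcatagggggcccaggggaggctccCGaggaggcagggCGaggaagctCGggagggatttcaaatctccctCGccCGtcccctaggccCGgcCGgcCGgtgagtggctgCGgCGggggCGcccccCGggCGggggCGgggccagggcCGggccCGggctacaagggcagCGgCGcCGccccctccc
Dnmt3l: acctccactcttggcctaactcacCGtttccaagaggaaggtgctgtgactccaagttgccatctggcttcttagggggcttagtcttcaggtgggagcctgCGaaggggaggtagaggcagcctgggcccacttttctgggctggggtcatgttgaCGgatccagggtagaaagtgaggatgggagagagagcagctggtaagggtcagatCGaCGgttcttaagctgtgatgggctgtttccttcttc
The letters describe the sequence only, and no link between CpG number and the change of a gene was tested.

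Per length of all annotated exons joined, Uhrf1, Dnmt3l, Dnmt1 and Tet1 were the most abundant transcripts of the group in all 3 libraries. These lengths ran from 2988 bases for Dnmt3l to 16870 for Tet2 and need not be those of the transcripts in use, so the order depends on them. By raw reads Tet1 was highest in control, with 45729, beside 14397 for Uhrf1 and 10090 for Dnmt3l. In control, Uhrf1 had 46.7 RPKM (CPM per kilobase of exon, exact 95% counting interval 46.0 to 47.5) and Dnmt3l 46.7 RPKM (45.8 to 47.6), so their order is not resolved by counting error. Dnmt1 followed with 44.2 RPKM, Tet1 with 40.9, Dnmt3b with 24.96, Tet2 with 14.6, Dnmt3a with 3.98 and Tet3 with 0.346 RPKM. Among the tested genes with a known length, Uhrf1 lay at percentile 92.9 of control RPKM and Tet3 at percentile 22.9. In KD-1 the order was led by Dnmt3l with 66.1 RPKM (65.1 to 67.1), ahead of Uhrf1 with 49.6 (48.9 to 50.3) and Tet1 with 45.5 (45.2 to 45.9). Dnmt3l also led in KD-2 with 60.6 RPKM (59.6 to 61.7), ahead of Uhrf1 with 37.1 (36.4 to 37.8) and Dnmt1 with 34.8 (34.3 to 35.3). The places from Dnmt3b downward were the same in every library: Dnmt3b in the fifth place, then Tet2, Dnmt3a, Tet3 and Tdg. These intervals cover counting error only, because no condition has a second library.

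**Figure D1:**
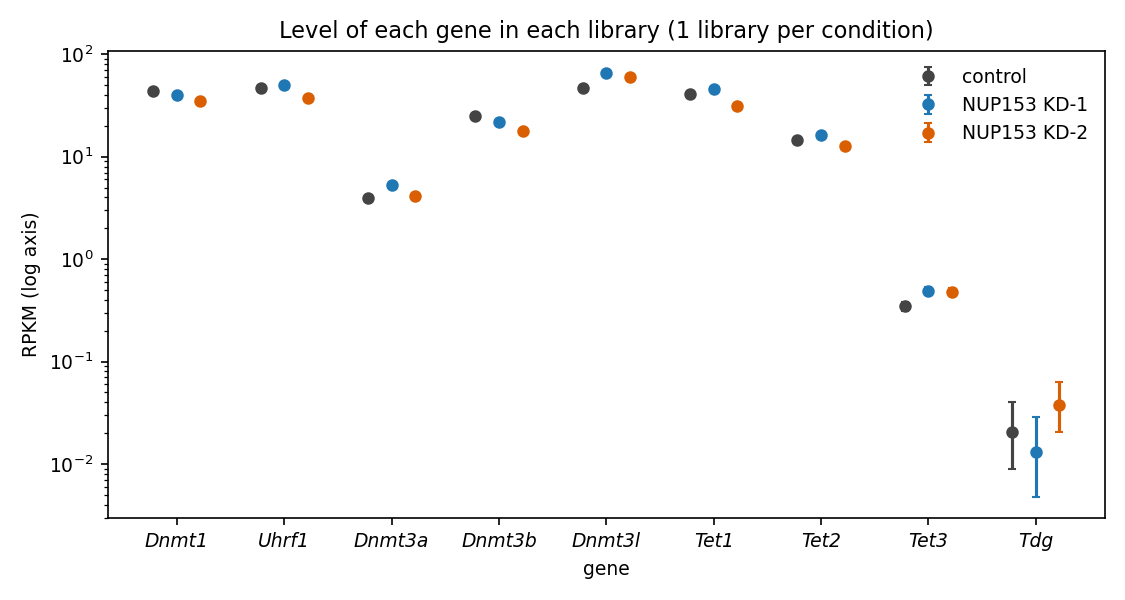
RPKM (log axis) of the 9 genes (x axis) in the control, NUP153 KD-1 and NUP153 KD-2 libraries, with exact 95% counting intervals as bars. Dnmt3l has the highest points in both knockdown libraries, 66.1 and 60.6 RPKM, Tet3 lies below 1 RPKM and Tdg below 0.1 RPKM in each library.

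To determine how far the knockdown libraries differed from control, reads were scaled to the upper quartile of each library and a change of more than 1.5-fold was counted. In KD-1, 0 of the 8 tested genes passed this fold, where 14.2% of all 16670 tested genes did. In KD-2, 1 of 8 passed, Dnmt3b with a lower level, where 27.3% of all tested genes passed. Between the knockdowns, 2 of 8 passed, Tet1 and Uhrf1 with higher levels in KD-1, where 30.1% of all tested genes passed. None of these shares is above that of all genes. The direction of the changes over all tested genes depended on the scaling: in KD-2 2847 were higher and 1700 lower, but 3942 and 820 with total reads and 5081 and 466 with pluripotency marker scaling. In KD-1 1438 were higher and 937 lower, against 974 and 1452 with pluripotency marker scaling. In KD-1 against KD-2, 2322 were higher and 2691 lower, against 1555 and 3172 with DESeq2 size factors, 1229 and 3525 with total reads and 486 and 5451 with pluripotency marker scaling. The median log2 fold change of the 8 genes was 0.17 with KD-1 and −0.42 with KD-2 against control, beside 0.02 and −0.02 over all tested genes. Each of the 8 genes had more scaled reads in KD-1 than in KD-2, as did 9824 of all 16670 tested genes. The median difference was 0.49 on the log2 scale, where the median of all tested genes was 0.12. When libraries were scaled on pluripotency markers, 3 of the 8 turned.

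**Figure D2:**
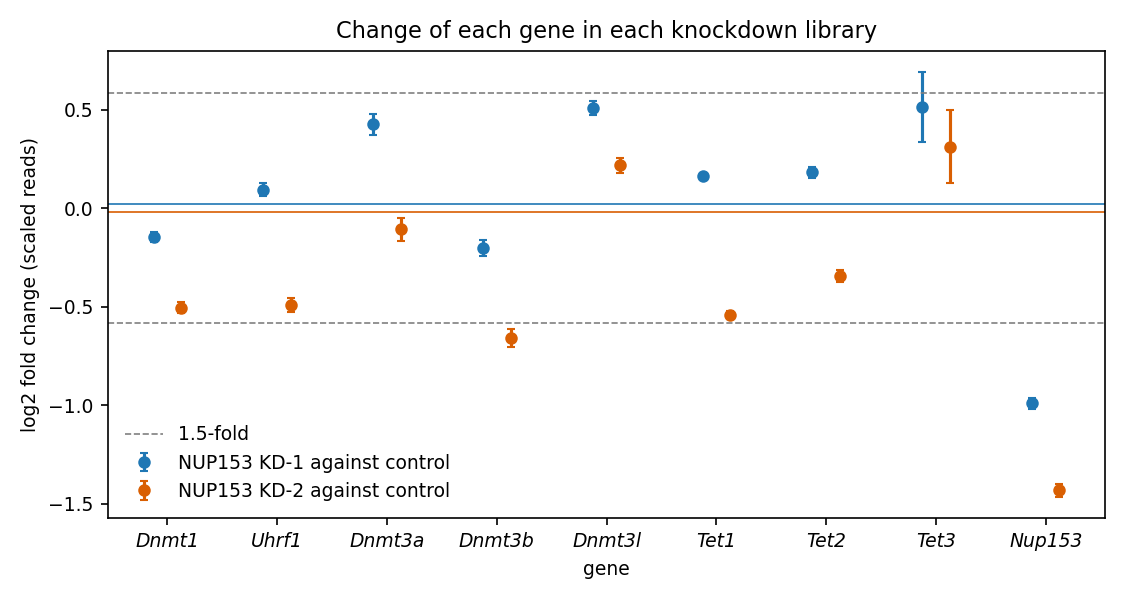
Log2 fold change of scaled reads against control (y axis) for the 8 tested genes and Nup153 (x axis) in each knockdown library, with exact 95% counting intervals. Solid lines mark the median of all tested genes and dashed lines a 1.5-fold change. Dnmt3b in KD-2 and Nup153 in both libraries lie outside the dashed lines. Under the upper quartile scaling shown, each of the 8 tested genes is higher in KD-1 than in KD-2. So are 9824 of all 16670 tested genes. Under pluripotency marker scaling, 3 of the 8 turn.

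Maintenance methylation rests on Dnmt1 (chr9:20907209-20959888, minus strand) and Uhrf1 (chr17:56303321-56323486, plus strand), and transcripts of both are known to peak around S phase. Dnmt1 had 25508 scaled reads in control, 23026 with KD-1 and 17979.6 with KD-2. Both knockdown libraries were below control, at a log2 fold change of −0.15 (exact 95% counting interval −0.17 to −0.12) with KD-1 and −0.50 (−0.53 to −0.48) with KD-2. Uhrf1 had 15557.5 scaled reads in control, 16616 with KD-1 and 11060.3 with KD-2. Here KD-1 was close to control, at 0.09 (0.06 to 0.13) on the log2 scale, which turned to −0.05 under pluripotency marker scaling, and KD-2 was lower at −0.49 (−0.53 to −0.46). The difference between the knockdowns was 1.502-fold for Uhrf1 (log2 0.59, interval 0.55 to 0.62), at the edge of the fold used. Subtracting the median of all genes in this comparison leaves 0.46, and the difference fell under 1.5-fold with TMM, DESeq2, total read and pluripotency marker scaling. The genes of S phase, chosen as a list of 20, gave a median of −0.05 with KD-1 and −0.53 with KD-2. In KD-1 0 of 20 passed the fold. In KD-2 8 of 20 passed it with lower levels, where 10.2% of all tested genes were lower past the fold. All 20 lay below control in KD-2, as did 8624 of all 16670 tested genes, and 3 of the 20 turned under pluripotency marker scaling. The count of 8 was 5 with TMM and with DESeq2 size factors, 3 with total reads and 1 with pluripotency marker scaling, where 8.35%, 8.49%, 4.92% and 2.80% of all tested genes were lower past the fold. Mcm2, a subunit of the replicative helicase, had 29738, 38679 and 27696 reads in control, KD-1 and KD-2 and a log2 fold change of −0.21 with KD-2. The catalytic subunit of DNA polymerase alpha, Pola1, had 30558, 32829 and 17672 reads and a log2 fold change of −0.90 with KD-2. In KD-1 the ends of the list were Cdt1, a replication licensing factor, at 0.23 and Slbp, which binds the stem loop of histone mRNAs, at −0.36. The part of S phase genes in the values of Dnmt1 and Uhrf1 was not tested.

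The genes of de novo methylation did not move as one. Dnmt3a (chr12:3806007-3914443, plus strand) had 5173 scaled reads in control, 6946 with KD-1 and 4805 with KD-2, a log2 fold change of 0.43 (0.37 to 0.48) with KD-1 and −0.11 (−0.16 to −0.05) with KD-2. The KD-2 value ranged from −0.11 to 0.19 over the scalings tried, so its sign is not settled. Dnmt3b (chr2:153649450-153687730, plus strand), the main de novo enzyme of the early embryo, had 9964 scaled reads in control, 8659 with KD-1 and 6305 with KD-2. It was below control in both knockdown libraries, at −0.20 (−0.24 to −0.16) with KD-1 and −0.66 (−0.71 to −0.61) with KD-2, the latter a 1.58-fold lower level. Dnmt3b in KD-2 stayed within 1.5-fold with total reads (−0.50) and with pluripotency marker scaling (−0.36). Of all tested genes, 21.0% had a larger change than Dnmt3b in KD-2. Dnmt3l (chr10:78041947-78063622, plus strand) had 10903 scaled reads in control, 15532 with KD-1 and 12689.8 with KD-2. It was above control in both knockdown libraries, at 0.51 (0.47 to 0.55) with KD-1 and 0.22 (0.18 to 0.26) with KD-2, neither of which reached 1.5-fold. Of the exon bases, 2.24% for Dnmt3l (with Aire) and 0.799% for Dnmt3a (with Dnmt3aos) are shared with a counted gene of the other strand, and the strand setting of the counting is not given in the sources used here.

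Shares within a library do not depend on how libraries are scaled to each other. Of the summed RPKM of the 4 methyltransferase genes, Dnmt3l made up 38.9% in control, 49.8% with KD-1 and 51.7% with KD-2. Dnmt1 made up 36.9%, 29.9% and 29.7%, and Dnmt3b 20.8%, 16.3% and 15.05%, in the same order. Both were lower in the knockdown libraries. Shares of reads, without division by length, have intervals that rest on counts. For Dnmt3b these were 19.0% to 19.7% in control, 15.7% to 16.3% with KD-1 and 14.8% to 15.4% with KD-2. For Dnmt1 they were 49.0% to 49.9%, 42.1% to 42.9% and 42.6% to 43.5%, so both fell by more than the counting error. Dnmt3a contributed 3.32%, 4.00% and 3.52%. Dnmt3l and Dnmt3b moved apart in their read numbers as well. For each Dnmt3b read there were 1.09 Dnmt3l reads in control (exact 95% counting interval 1.06 to 1.13), 1.79 with KD-1 (1.75 to 1.84) and 2.01 with KD-2 (1.95 to 2.07). This ratio rose 1.64-fold in KD-1 and 1.84-fold in KD-2 against the same control library. It is 1 of 28 ratios among the 8 tested genes, which were looked at after the values were seen. The largest change in both knockdown libraries was that of the scarce Tet3 to Dnmt3b, 1.642-fold in KD-1 and 1.96-fold in KD-2. Dnmt3l to Dnmt1 rose 1.58-fold and 1.65-fold, so the shift was not particular to Dnmt3l and Dnmt3b. In KD-1, 5 of the 28 ratios differed from control by more than 1.5-fold, where 27.6% of all pairs of tested genes did. In KD-2, 9 of the 28 did so, where 44.5% of all pairs did. Read against these shares, the ratios among the writers and erasers passed the fold no more often than those of other genes. At the steady end, Uhrf1 reads for each Tet1 read numbered 0.315 in control, 0.300 with KD-1 and 0.325 with KD-2.

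**Figure D3:**
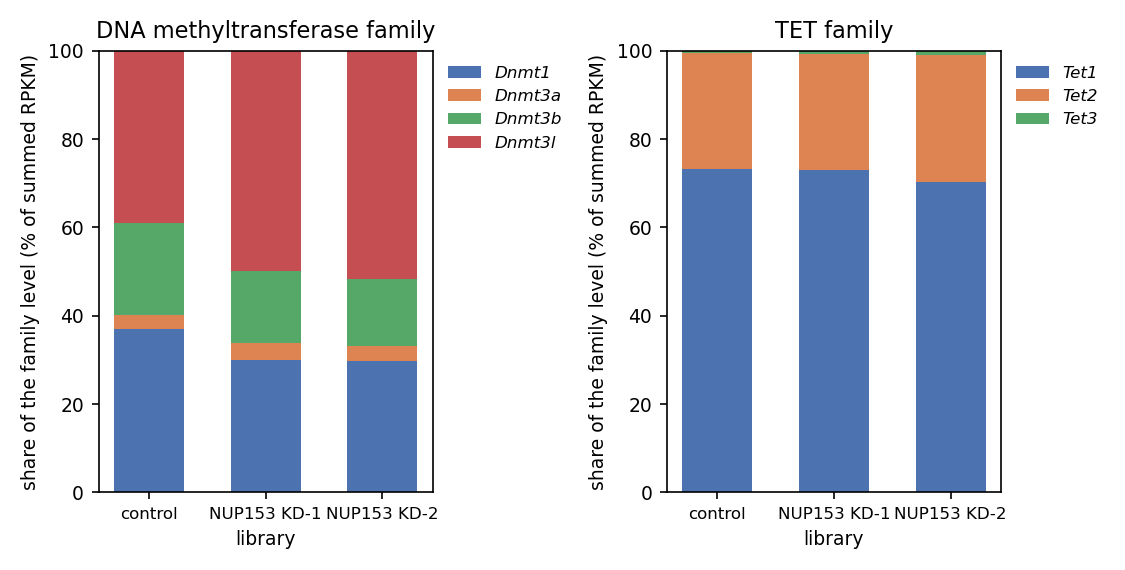
Share of each gene in the summed RPKM (percent, y axis) of the DNA methyltransferase family (left) and the TET family (right), by library (x axis). The Dnmt3l part grows from 38.9% in control to 49.8% and 51.7% in the knockdown libraries, while Tet1 stays at 70.3% to 73.3% of its family.

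Of the TET genes, Tet1 (chr10:62804570-62908996, minus strand), the main TET enzyme of ES cells, had 49415 scaled reads in control, 55342 with KD-1 and 33989.5 with KD-2. It was above control in KD-1 at 0.16 (0.15 to 0.18) and below it in KD-2 at −0.54 (−0.56 to −0.52), which left a 1.63-fold difference between the knockdowns (log2 0.70, interval 0.68 to 0.72). After subtraction of the median of all genes, 0.58 remains, and 22.3% of all tested genes differed more between KD-1 and KD-2. With total reads or pluripotency marker scaling Tet1, too, stayed within 1.5-fold. Tet2 (chr3:133463679-133545139, minus strand) showed the same order at smaller size, with 19196, 21785 and 15139 scaled reads and log2 fold changes of 0.18 (0.15 to 0.21) with KD-1 and −0.34 (−0.37 to −0.31) with KD-2. Both genes were highest in KD-1 and lowest in KD-2 under all 5 scalings. Tet3 (chr6:83362373-83459084, minus strand), the TET enzyme of the oocyte and of differentiated cells, was scarce, with 418, 699 and 559 raw reads in control, KD-1 and KD-2. Its log2 fold change was 0.51 (0.34 to 0.69) with KD-1 and 0.31 (0.13 to 0.50) with KD-2, so both libraries lay above control. Tet1 held 73.3% of the summed TET level in control, 72.9% with KD-1 and 70.3% with KD-2. Tet3 held 0.620%, 0.786% and 1.07%, with intervals of 0.562 to 0.683, 0.729 to 0.848 and 0.987 to 1.17. The share of Tet3 was thus lowest in control and highest in KD-2.

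Tdg (chr10:82629828-82650799, plus strand) had 8 reads in control, 6 with KD-1 and 14 with KD-2, and was left out of the tested genes. Its log2 fold change was −0.60 (−2.45 to 1.07) with KD-1 and 0.67 (−0.65 to 2.16) with KD-2. No difference between libraries was detectable at this depth. The overlap of its sequence with Tdg-ps, shown above, and the overlap of 6.83% of its exon bases with Glt8d2 on the opposite strand bear on how its reads were counted, and their part in the low number was not tested.

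To compare both knockdown libraries as a group with control, edgeR's quasi-likelihood test was used, whose estimate of the spread comes from KD-1 and KD-2 alone with 1 residual degree of freedom. None of the 8 genes was called: the count was 0 with an adjusted p of 1.00 for each, where 1 of 16670 genes, or 0.006%, was called at an adjusted p under 0.05. The unadjusted p ran from 0.327 for Dnmt3b to 0.905 for Tet2, so 0 of the 8 lay under 0.05, as did 0 with the Wald test of DESeq2. Of all 16670 genes, 211 (1.27%) lay under 0.05 in the edgeR test. At so low a share, 0 of 8 does not set these genes apart. Nup153 had an unadjusted p of 0.00881 at a log2 fold change of −1.19 and an adjusted p of 1.00 as well. The single called gene, Mir6236, had 1229 reads in control, 24133 with KD-1 and 1136 with KD-2 and rests on KD-1.

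Factors that recruit, restrain or modify these enzymes were mostly within 1.5-fold of control. Of 18 partners and regulators, 17 were tested, with a median of 0.13 with KD-1 and −0.29 with KD-2. In KD-1 1 was higher and 0 were lower past the fold (8.63% and 5.62% of all tested genes), and in KD-2 2 were higher and 3 were lower (17.1% and 10.2%). With total reads and with pluripotency marker scaling the KD-2 counts were 3 higher and 1 lower, and with the latter the KD-1 counts were 0 higher and 1 lower. Zfp57, which keeps methylation at imprinted loci together with Trim28, had 5227, 10109 and 4836 reads in control, KD-1 and KD-2 and a log2 fold change of 0.72 with KD-1 and −0.22 with KD-2. Dppa3, known to keep UHRF1 from chromatin, had 5419, 4567 and 1912 reads, at −0.48 with KD-1 and −1.61 with KD-2, the lowest value of the list in both. The CXXC protein gene Cxxc4 gave the highest value in KD-2, 0.86, from 30, 46 and 59 reads. Of the 10 methyl-CpG readers, 0 passed the fold in KD-1 and 1 in each direction in KD-2. Of all tested genes, 14.2% and 27.3% passed it. The readers had medians of 0.26 and 0.14. The KD-2 counts were 2 higher and 1 lower with total reads (median 0.29), and 4 higher and 0 lower with pluripotency marker scaling (median 0.43). Mbd4, a reader that is also a glycosylase for G:T mismatches, had 1999, 2148 and 1250 reads and was lowest in both knockdowns, at −0.12 and −0.78. Zbtb4, a zinc finger protein that binds methylated CpG, was highest in KD-2 at 0.93, with 644, 902 and 1319 reads. Mbd6 was highest in KD-1 at 0.56, with 103, 178 and 147 reads.

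The repair steps after TET oxidation and the supply of methyl groups and 2-oxoglutarate, the cosubstrate of the TET enzymes, were covered by 35 tested genes. Of 17 genes of base excision repair and linked factors, 1 passed the fold in KD-1 and 5 did so in KD-2, 2 higher and 3 lower, where 14.2% and 27.3% of all tested genes passed, with medians of −0.06 and −0.13. With total reads the KD-2 counts were 2 higher and 2 lower, and with pluripotency marker scaling 3 higher and 1 lower, and the KD-2 median turned to 0.02 and 0.16. Gadd45g, a stress-induced gene that has been linked to demethylation, had 518, 385 and 1497 reads and so the lowest value in KD-1, −0.66, and the highest in KD-2, 1.42. Neil3, a glycosylase for oxidized bases, was lowest in KD-2 at −0.91 with 307, 313 and 176 reads, and Ogg1, the 8-oxoguanine glycosylase, was highest in KD-1 at 0.32 with 217, 317 and 274 reads. Of 18 tested genes of the methionine cycle and of 2-oxoglutarate supply, 1 passed the fold in KD-1 and 3 did so in KD-2, 1 higher and 2 lower, beside the same 14.2% and 27.3% of all tested genes, with medians of −0.000376 and −0.32. The 2 lower genes were within the fold under pluripotency marker scaling. The gene beyond the fold in KD-1 was Bhmt, a betaine-homocysteine methyltransferase, with 12, 144 and 35 reads and log2 fold changes of 3.31 and 1.40. Shmt1, the cytosolic serine hydroxymethyltransferase, was lowest in KD-2 at −0.79 with 13325, 14406 and 8293 reads, and Mat2b, a subunit of the enzyme that makes S-adenosylmethionine, lowest in KD-1 at −0.31 with 8572, 8084 and 6207 reads.

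Germline genes known to be silenced by promoter methylation in other cells were followed as well. Of 14 such genes, 9 were higher past the fold in KD-1 and 0 lower, where 8.63% of all tested genes were higher. In KD-2, 7 were higher and 3 lower, where 17.1% of all tested genes were higher and 10.2% lower. The median was 1.00 with KD-1 and 0.63 with KD-2, and the counts of higher genes, 9 and 7, were the same under all 5 scalings, while that of lower genes in KD-2 ranged from 0 to 3. Taf7l, a germ cell variant of a TFIID subunit, had 225, 1241 and 1275 reads in control, KD-1 and KD-2 and log2 fold changes of 2.23 and 2.39. Tex101, which codes for a germ cell surface protein, had 34, 258 and 161 reads, at 2.68 and 2.12. On the other side, Tex11, a meiosis gene, had 1396, 1285 and 969 reads, at −0.35 and −0.63, and Asz1, a gene of the piRNA pathway, 172, 164 and 107 reads, at −0.30 and −0.79. Germline genes past the fold were thus all higher in KD-1, while in KD-2 they lay in both directions under upper quartile scaling. Whether their promoters were methylated in these cells was not measured.

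**Figure D4:**
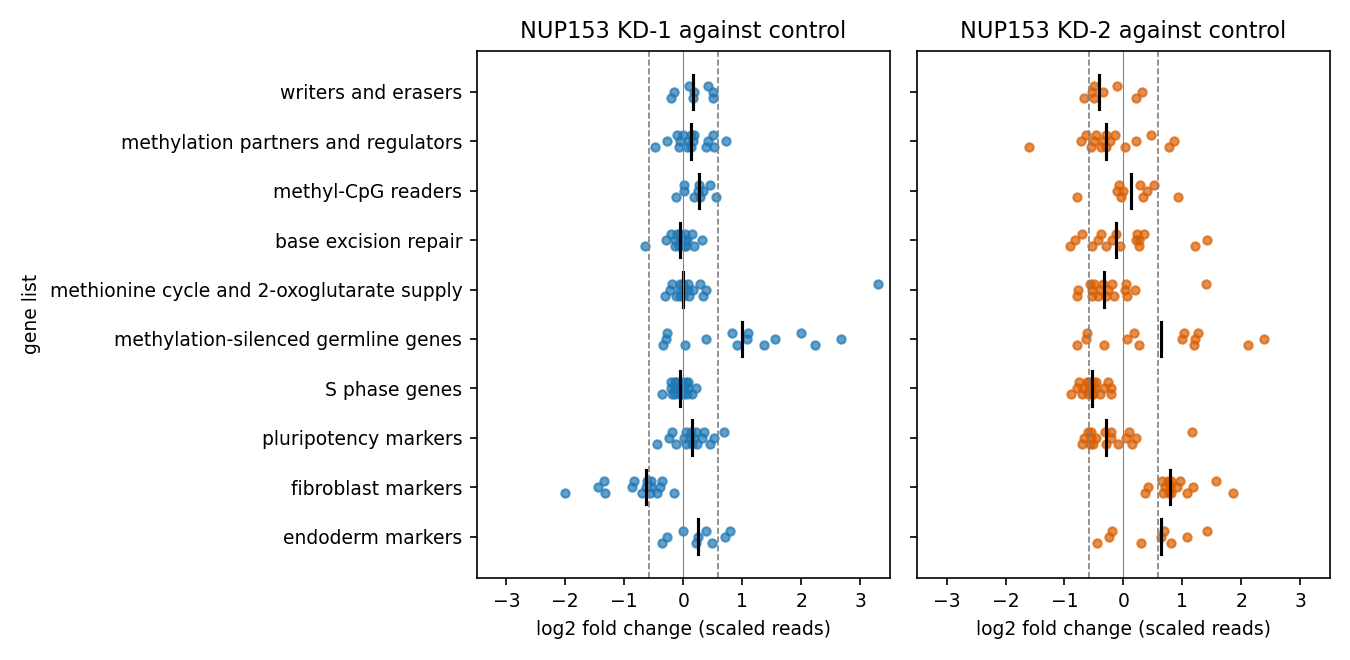
Log2 fold change of scaled reads against control (x axis) for every tested gene of 10 lists (y axis), KD-1 on the left and KD-2 on the right, with black bars at the median and dashed lines at 1.5-fold. Of the 14 germline genes, 9 lie beyond the right dashed line for KD-1 and 7 for KD-2, and the fibroblast markers lie left of 0 for KD-1 (median −0.63) and right of 0 for KD-2 (median 0.80).

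Cell type markers moved alongside. Of the 16 fibroblast markers, 9 were lower and 0 higher past the fold in KD-1, where 5.62% of all tested genes were lower. In KD-2 14 were higher and 0 lower, where 17.1% of all tested genes were higher. Postn, a matrix protein of fibroblasts, had 6547, 1902 and 11277 reads in control, KD-1 and KD-2 and log2 fold changes of −2.01 and 0.68, and Loxl1, a lysyl oxidase, had 1542, 1236 and 6052 reads, at −0.55 and 1.87. At the other ends of this list, Col5a1, a collagen gene, lay at −0.15 with KD-1 and Thy1, a surface protein, at 0.37 with KD-2. The 18 pluripotency markers had medians of 0.15 and −0.30, with 1 higher past the fold in KD-1 and 1 higher and 3 lower in KD-2, where 10.2% of all tested genes were lower. The count of lower markers in KD-2 was 2 with TMM and with DESeq2 size factors and 0 with total reads, which moved the median to −0.14. Utf1, a chromatin protein of pluripotent cells, was highest in both, with 127, 240 and 308 reads and log2 fold changes of 0.69 and 1.17, Tdh, threonine dehydrogenase, was lowest in KD-1 at −0.44 and Zfp42 with KD-2 at −0.70. The summed level of these markers was 6483 CPM in control, 6941 with KD-1 and 5329 with KD-2, beside 1742, 1889 and 1463 for the 8 tested writers and erasers. Of 12 endoderm markers 9 were tested. In KD-1 2 of these were higher past the fold and in KD-2 5 were (8.63% and 17.1% of all tested genes). Most were scarce: Sox17 had 15, 31 and 20 reads, Gata4 had 22, 20 and 20, and Amn had 15, 25 and 44. Lama1, which other cells use as well, had 7075, 8319 and 5600 reads, at 0.01 with KD-1 and −0.44 with KD-2. Abundant markers were also among those past the fold. Col4a1 had 3155, 6021 and 5936 reads, at 0.70 and 0.80, and Pdgfra had 6423, 6255 and 11095, at −0.27 and 0.68. The part of these cell types in the values of the writers and erasers was not tested.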

How the data were processed

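The authors sequenced 50 bp single-end reads of ribosome-depleted RNA, mapped them to mm10 with UCSC known genes, and deposited raw read counts per gene. The submitters' processing notes name Trim Galore 0.4.1, TopHat2 2.1.1 and HTSeq, the methods featureCounts, and no strand setting is given. Summary lines (23.0% to 25.6% of the reads listed) were left out. Spike-in values were not used here, so the study's test with a fixed dispersion was replaced.

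Counts were scaled by upper quartile with a pseudocount of 0.5, and genes averaging at least 10 reads were compared between libraries by a fold above 1.5, with no test. Both knockdowns were compared with control by edgeR 4.0.16 (quasi-likelihood, Benjamini-Hochberg) and DESeq2 1.42.0 (Wald) in R 4.3.3. On simulated counts for this comparison with a dispersion of 0.04, the edgeR test called 187 of 200 genes changed 4-fold with 14 false calls among 16670 genes. Smaller changes, such as those of the members, and other dispersions were not simulated. The simulation thus does not show whether changes of that size would be called. RPKM used the union of GENCODE vM21 exons, with 23376 genes matched by symbol and 651 by an older one. Intervals (95%, exact Clopper-Pearson or Poisson, Wilson for shares) cover counting error only. For shares of summed RPKM the formula took the reads of the family as the total, so those intervals only approximate the counting error.

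The members, lists and tests were chosen with earlier results of these data known. Named were all 9 members, Nup153, the highest and lowest gene of each list in each knockdown, and, for each member past the fold, the 2 genes nearest to it among those averaging at least 1000 reads. The genes nearest to Tet1 are not reported here. Gm9855, Mir6236, Aire, Dnmt3aos, Glt8d2, Col4a1 and Pdgfra were named after their values or positions were seen. Alternatives were 4 other scalings, 2 other minimums, a pseudocount of 5, a fold above 2, TPM and shares of reads.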

Additional observations from a re-analysis of the deposited data

Results flagged for a closer look

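In 3 genes the knockdown libraries lay on opposite sides of control, KD-1 above and KD-2 below, under upper quartile, TMM, DESeq2 and total read scaling. Uhrf1 had log2 fold changes of 0.09 and −0.49 against control and a difference between KD-1 and KD-2 of 0.59. For Tet1 the values were 0.16, −0.54 and 0.70, and for Tet2 0.18, −0.34 and 0.53. With 1 library per knockdown the difference was not tested.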

How the results depend on the processing

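The number of writers and erasers past the fold changed with the processing. In KD-1 against control the count of 0 became 1 when all genes with a read were kept, which adds Tdg. In KD-2 against control the count of 1 became 0 with total reads and with a fold above 2, and 2 with all genes with a read, which again adds Tdg. Under pluripotency marker scaling it was 1, but the gene was Tet3, higher, in place of Dnmt3b. Between the knockdowns the count of 2 became 1 with TMM and with DESeq2 size factors (Tet1), and 0 with total reads, with pluripotency marker scaling and with a fold above 2. With all genes with a read it was 3, the added gene being Tdg, lower in KD-1 (log2 −1.27). Over all genes, counts past the fold of 2375, 4547 and 5013 for KD-1 against control, KD-2 against control and KD-1 against KD-2 became 5298, 7461 and 8080 with all genes with a read, 1028, 2852 and 3318 with a mean of at least 100 reads, and 770, 1212 and 1839 with a fold above 2, which by construction test more or fewer genes or ask for more change. For both knockdowns as a group, the count of 1 called gene became 0 with DESeq2 size factors and with total reads (123 and 120 genes at an unadjusted p under 0.05), and 2 with all genes with a read and with the DESeq2 Wald test. Without either knockdown library no test remains, and 2375 to 4547 genes pass the fold in the other. As shares of reads without division by length, Dnmt3l made up 21.2%, 28.7% and 30.4% of its family in control, KD-1 and KD-2, and Tet1 71.6%, 71.2% and 68.4%. Of the 135 single log2 fold changes under other scalings or the larger pseudocount, 68 lay outside the counting interval of the value given, and 0 of those past the fold turned in sign. The order of the members in TPM is that in RPKM by construction, because both divide the same reads per kilobase by a constant for each library. The median of all tested genes against control moved to 0.14 for KD-2 under total read scaling, and to −0.13 for KD-1 and 0.28 for KD-2 under pluripotency marker scaling. No paired analysis was possible because each group has 1 library.

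With 1 library per condition, the counting intervals hold no spread between cultures, and a difference between shRNAs cannot be told apart from one between cultures.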

Other observations

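Genes with the pattern most like that of a member past the fold were found by the distance between their log2 fold changes in KD-1 and KD-2 against control, over genes averaging at least 1000 reads. Nearest to Dnmt3b were Btf3l4 (−0.20 and −0.65) and Haus6, a subunit of the augmin complex of the spindle (−0.20 and −0.66). For Uhrf1 they were Gm17066 (0.09 and −0.49) and Epha4, an ephrin receptor (0.09 and −0.49). Such patterns were common: of 7880 genes, 207 lay within a distance of 0.1 of Dnmt3b, 142 of Tet1 and 292 of Uhrf1.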
